A study of Cricetulus griseus with 24 samples.

Results

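The G1 cyclins, the kinases they bind and the inhibitors of those kinases were followed as Chinese hamster ovary (CHO) cells in suspension left exponential growth. The 10 genes were picked by symbol from the deposited table of 28037 genes: Ccnd1, Ccnd2, Ccnd3, Ccne1, Ccne2, Cdk2, Cdk4, Cdk6, Cdkn1b and Cdkn2c. All 10 had a row, and all 10 passed the filter that left 21358 genes for testing (at least 1 read in at least 2 samples).

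Bulk RNA-seq of 3 lines at exponential and stationary phase gave 24 libraries. A0 is an antibody-producing CHO DG44 line that carries one plasmid with an IgG heavy chain and dihydrofolate reductase and another with the light chain and neomycin resistance, and that had been selected in G418. A1 descends from A0 through stepwise methotrexate selection, so these lines are 1 lineage and stand for no other clone. CHO-S, whose samples are titled NDST with no explanation of that name, served as a non-producing negative control. Its host lineage, any engineering of it, the transgenes of the other lines and its culture history cannot be told apart in a comparison with A0 or A1. A0 and A1 grew without serum, in a medium that contains insulin, and all lines as batch cultures in shaken flasks. A0 had 4 cultures per phase, with 2 libraries summed for each exponential culture, and A1 and CHO-S had 3 cultures per phase, which made 20 samples in 6 groups. The study's methods describe triplicate flasks of each line, whereas the labels only number the samples, to 4 for A0. The samples are called cultures after the methods, and the p-values measure the spread between these numbered samples. Some of them differed no more than repeat libraries of 1 A0 culture, as given with the processing below. What share of that spread is technical was not tested.

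Passage from G1 into S phase is controlled by cyclin-dependent kinases. D-type cyclins, whose synthesis follows growth factor signals, bind Cdk4 and Cdk6 and start the phosphorylation of the retinoblastoma protein, which releases E2F factors. E2F then drives the genes of cyclin E, which binds Cdk2, and of DNA synthesis, while p27 (Cdkn1b) holds back cyclin E-Cdk2 and p18 (Cdkn2c) binds Cdk4 and Cdk6 directly. Much of the control of p27 and of the D cyclins lies in translation and protein turnover, which RNA levels do not show.

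The summed A0 exponential samples held between 23065838 and 26584337 reads on genes, and the other samples between 6532373 and 14652646, with 1 exception. CHO-S stationary culture 1 had 1038026 reads on genes, 32.8% of its reads fell outside genes (11.9% to 18.4% elsewhere), and its median correlation of log2 CPM (CPM being reads scaled to a common library size) with its own group was 0.880, against 0.937 and 0.938 for the other cultures of that group and at least 0.982 in every other group. Because 1 estimate of spread per gene served all groups, the counts of genes called are given with and without this culture. So are the CHO-S phase changes of the 10 genes that passed the test. Other values of the 10 genes are given without it too where that changed the call or the sign. Log2 changes of genes outside the 10 are from all 20 samples. Vim, a mesenchymal marker that CHO cells express, lay between 734 and 1496 CPM of the sample's reads on genes in every sample. Ptprc of leukocytes had 0 reads in 17 of the 20 samples and at most 2, and Alb of hepatocytes had at most 10 reads, Epcam of epithelium at most 45 and Pecam1 of endothelium at most 72. In bulk samples, fewer cells of a type and less RNA per cell cannot be told apart, and this holds for the share of cells in each stage of the cycle too.

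In all 3 lines stationary phase brought lower relative RNA levels of both E cyclins and of Cdk2. The D cyclins parted: Ccnd2 RNA rose in A0 and CHO-S, and its smaller rise in A1 missed the threshold in the main fit. Ccnd1 RNA fell in A0 and A1 and rose in CHO-S. The inhibitor Cdkn2c fell in A0 and CHO-S and rose in A1. These calls are from edgeR's quasi-likelihood test with a Benjamini-Hochberg adjusted p under 0.05 over all genes tested.

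In A0, 8 of the 10 genes passed the test, 1 higher and 7 lower at stationary phase. The background was high there, since 35.2% of all genes tested passed (17.2% higher and 18% lower), and 52.4% of the genes with a mean of at least 5 CPM, to which all 10 belong. In A1, 6 passed, 1 higher and 5 lower, against 11.6% of all genes (5.83% higher, 5.74% lower) and 19% of those with a mean of at least 5 CPM. In CHO-S, 7 passed, 2 higher and 5 lower, against 19.2% of all genes (9.49% higher, 9.74% lower) and 32.3% of those with at least 5 CPM. The median log2 change of the 10 genes was -0.69 in A0, -0.42 in A1 and -0.40 in CHO-S, where the median over genes with at least 5 CPM was -0.07, -0.06 and -0.04. Without CHO-S stationary culture 1, 9 genes passed in A0, 9 in A1 and 7 in CHO-S, and the share of all genes rose to 41.5%, 19.6% and 24.6%. The cultures of the phases did not overlap for 9 of the 10 genes in A0, 9 in A1 and 8 in CHO-S, and this was so for 33.9%, 37.4% and 29.6% of all genes tested (51.7%, 59.7% and 47.2% of those with at least 5 CPM).

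**Figure D1:**
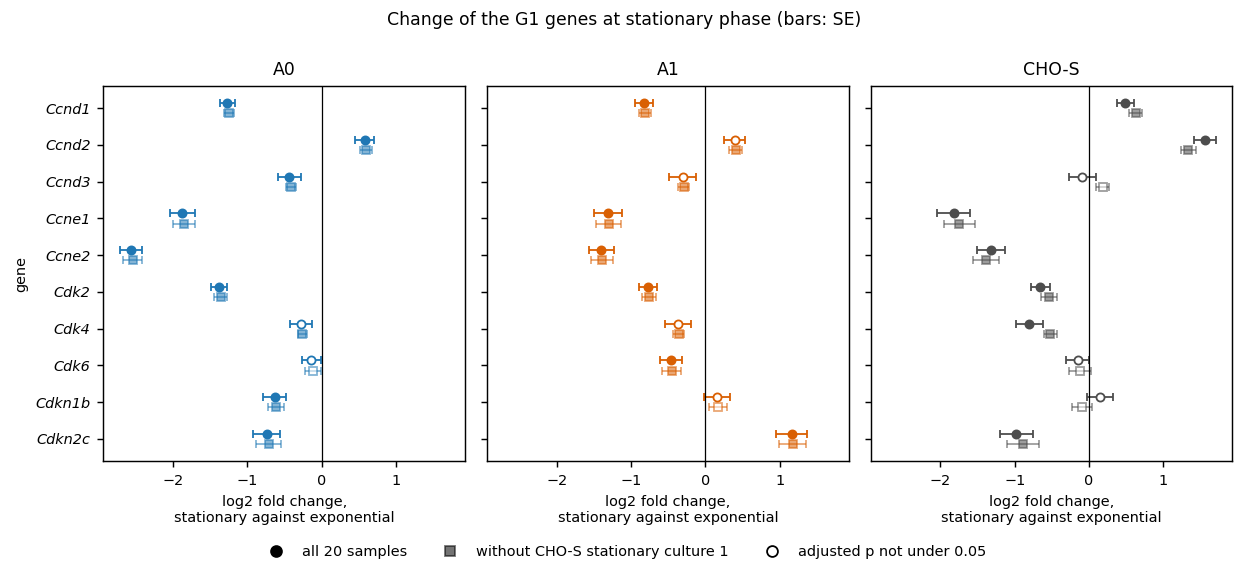
Log2 fold change of each G1 gene at stationary against exponential phase in A0, A1 and CHO-S, with its SE, in all 20 samples (circles) and without CHO-S stationary culture 1 (squares); filled points have an adjusted p under 0.05. Ccne1, Ccne2 and Cdk2 lie left of 0 in every line, Ccnd1 lies left of 0 in A0 and A1 and right of it in CHO-S, and Cdkn2c lies right of 0 in A1 alone.

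Ccnd1 encodes cyclin D1, the D cyclin most tied to growth factor signals. In A0 its level was 357, 357, 327 and 331 CPM in the exponential cultures and 143, 140.2, 128 and 157 CPM in the stationary ones. In A1 it was 448, 422 and 396 CPM against 225, 248 and 242 CPM. In CHO-S it was 632, 613 and 631 CPM against 714, 939.6 and 972 CPM, the lowest of which is the sparsely read culture 1. No culture of one phase overlapped with the other phase in any line, but the order of the phases was turned round in CHO-S. Ccnd1 RNA fell by 1.27 on the log2 scale (SE 0.10) in A0 and by 0.82 (SE 0.12) in A1 and rose by 0.49 (SE 0.12) in CHO-S, with adjusted p of 4.7e-10, 4.4e-05 and 0.0037 from edgeR. Without CHO-S culture 1 the rise in CHO-S was 0.63 (SE 0.09), and with the CHO-S cultures fitted on their own, culture 1 included, the value of 0.49 missed the threshold (adjusted p = 0.058).

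Ccnd2, which encodes cyclin D2, moved the other way in A0. Its level was 60.0, 72.6, 80.2 and 69.8 CPM in exponential A0 cultures and 95.03, 98.2, 112 and 116 CPM in stationary ones. In A1 it was 127, 133 and 128 CPM against 162, 164 and 184 CPM. In CHO-S it was 215, 209 and 209 CPM against 829.8, 526 and 529 CPM. All stationary cultures lay above all exponential cultures of their line, and CHO-S culture 1 lay far above the other stationary cultures. Ccnd2 RNA rose by 0.58 on the log2 scale (SE 0.13, adjusted p = 0.00066 by edgeR) in A0 and by 1.56 (SE 0.15, adjusted p = 6.6e-08) in CHO-S, or by 1.34 (SE 0.10) without culture 1. In A1 the value of 0.39 (SE 0.14) missed the threshold (adjusted p = 0.080 by edgeR) and passed it without CHO-S culture 1 (0.41, SE 0.09, adjusted p = 0.0016). The A1 rise also passed with DESeq2, with filterByExpr and with A1 fitted on its own.

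Ccnd3, for cyclin D3, had the smallest log2 changes of the D cyclins in A0 and A1. Exponential A0 cultures had 108, 105, 106 and 107 CPM and stationary ones 76.1, 75.8, 87.2 and 76.2 CPM, with culture 3 above the rest. A1 had 87.7, 94.1 and 94.1 CPM against 71.2, 76.4 and 75.2 CPM. CHO-S had 114, 109.5 and 99.5 CPM against 39.2, 121 and 122 CPM, so that its stationary cultures 2 and 3 lay above all exponential cultures and culture 1 below them. Its log2 change in A0 was -0.44 (SE 0.16, adjusted p = 0.032 by edgeR), and it missed the threshold in 7 of the 8 fits that left out 1 A0 culture (adjusted p from 0.055 to 0.075) and with DESeq2, RLE or upper quartile scaling, filterByExpr or only A0 cultures 1 and 2 or 3 and 4 (-0.46 to -0.37, adjusted p from 0.050 to 0.31). In A1 the value was -0.31 (SE 0.18, adjusted p = 0.34), and -0.29 (SE 0.08, adjusted p = 0.0080) without CHO-S culture 1. In CHO-S it was -0.088 (SE 0.19, adjusted p = 0.89) and turned to 0.18 (SE 0.09, adjusted p = 0.14) without that culture.

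**Figure D2:**
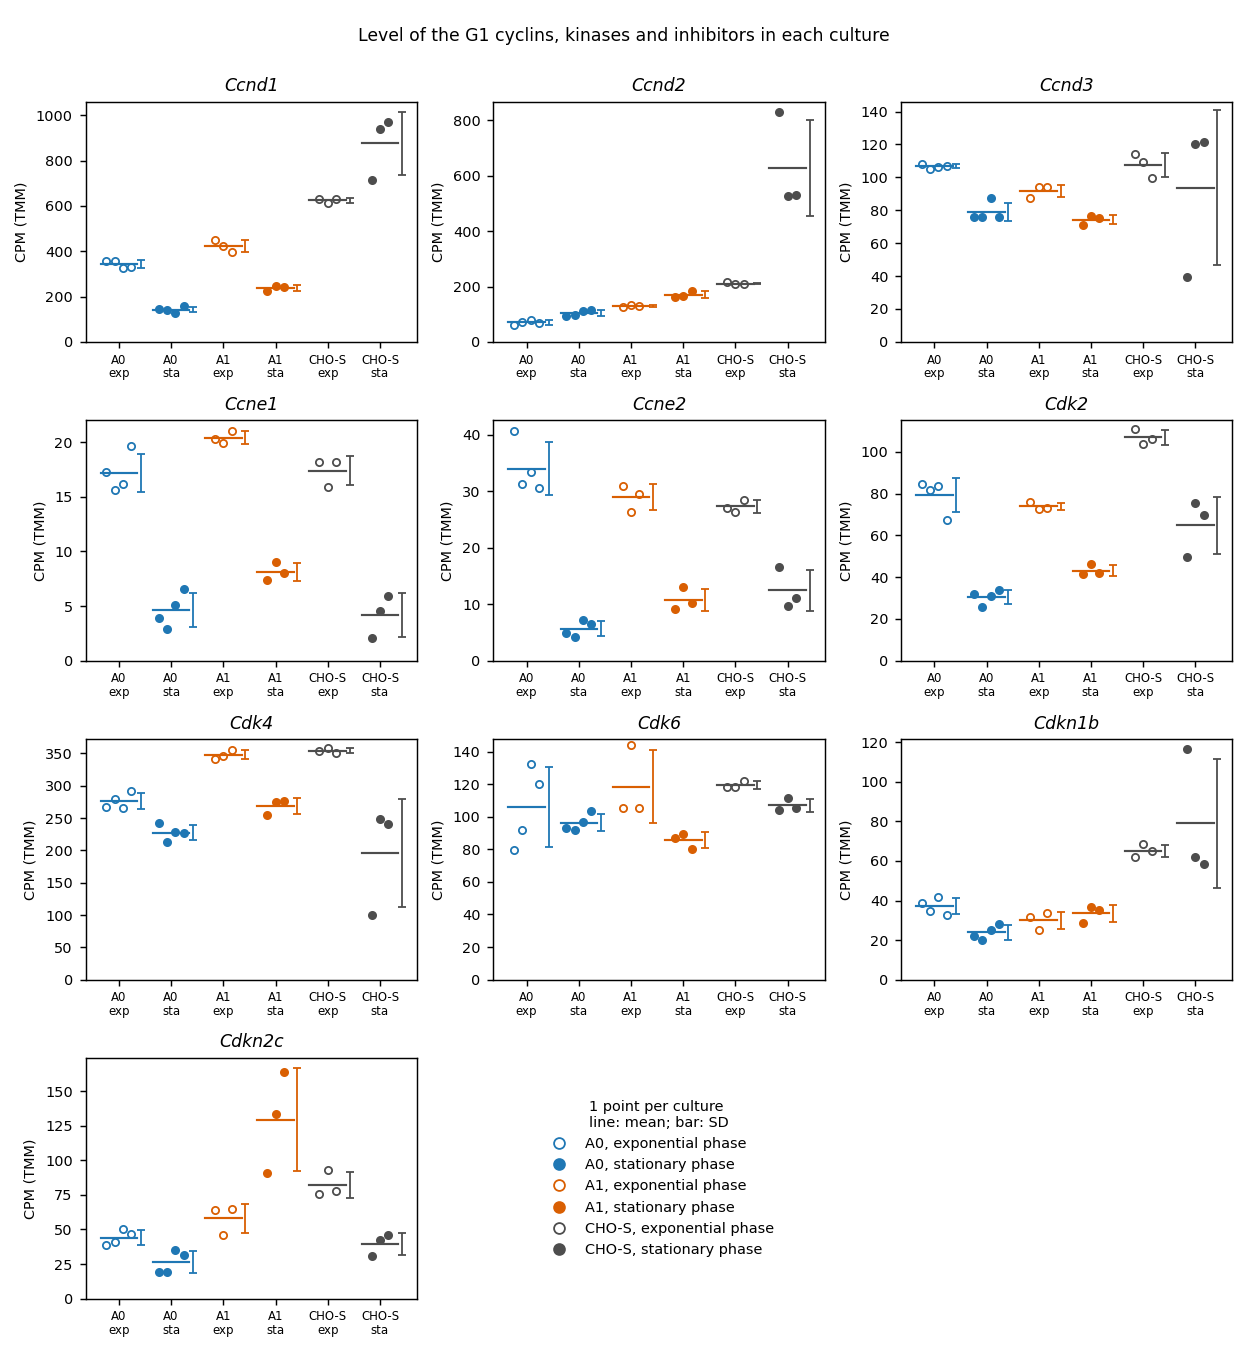
Level of each of the 10 genes in CPM (TMM-normalized) in every culture of A0, A1 and CHO-S at exponential (exp, open) and stationary (sta, filled) phase, with the mean as a line and the SD as a bar. Ccnd1 and Ccnd2 rank CHO-S above A1 above A0 in both phases, Cdkn2c is highest in stationary A1, and 1 stationary CHO-S culture stands apart in Ccnd2, Ccnd3, Cdk4 and Cdkn1b.

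The E cyclins, which act with Cdk2 at the step into S phase, fell more than any other of the 10 genes in each line. Ccne1 (cyclin E1) had 17.2, 15.7, 16.2 and 19.6 CPM in exponential A0 cultures and 3.91, 2.94, 5.07 and 6.59 CPM in stationary ones. A1 had 20.3, 19.9 and 21.04 CPM against 7.39, 9.04 and 7.99 CPM. CHO-S had 18.1, 15.9 and 18.1 CPM against 2.06, 4.54 and 5.96 CPM, and the lowest of these rests on 2 reads. The phases were apart in all 3 lines, with log2 changes of -1.88 (SE 0.16) in A0, -1.31 (SE 0.18) in A1 and -1.82 (SE 0.22) in CHO-S, or -1.75 (SE 0.21) without culture 1.

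Ccne2 (cyclin E2) fell most in A0. Its exponential A0 cultures had 40.7, 31.2, 33.5 and 30.6 CPM and its stationary ones 4.84, 4.29, 7.17 and 6.44 CPM. A1 had 30.9, 26.4 and 29.6 CPM against 9.24, 12.97 and 10.2 CPM, and CHO-S had 27.0, 26.4 and 28.5 CPM against 16.5, 9.75 and 11.1 CPM. Exponential cultures of all lines lay between 26.4 and 40.7 CPM, and every stationary A0 culture lay below every stationary culture of A1 and CHO-S. The log2 change was -2.57 (SE 0.15) in A0, -1.40 (SE 0.17) in A1 and -1.32 (SE 0.19) in CHO-S, or 5.93-fold, 2.65-fold and 2.497-fold lower, and -1.39 (SE 0.17) in CHO-S without culture 1.

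Cdk2, the kinase partner of cyclin E and cyclin A, had 84.8, 81.9, 83.5 and 67.3 CPM in exponential A0 cultures, where culture 4 was low, and 31.7, 25.5, 31.0 and 33.6 CPM in stationary ones. A1 had 76.0, 72.6 and 72.9 CPM against 41.4, 46.1 and 42.0 CPM. CHO-S had 111, 104 and 106 CPM against 49.5, 75.6 and 69.6 CPM. The phases did not overlap in any line, and the log2 change was -1.38 (SE 0.11) in A0, -0.77 (SE 0.13) in A1 and -0.66 (SE 0.13) in CHO-S, or -0.54 (SE 0.11) without culture 1. The adjusted p of these 9 falls of Ccne1, Ccne2 and Cdk2 lay between 1.7e-12 (Ccne2 in A0) and 0.00060 (Cdk2 in CHO-S) by edgeR's quasi-likelihood test, and each remained called without CHO-S culture 1.

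Cdk4 and Cdk6, the partners of the D cyclins, moved less than Cdk2 in A0 and A1, and in the main fit only Cdk6 did in CHO-S. Cdk4 had 267, 279.98, 266 and 292 CPM in exponential A0 cultures and 242, 213, 229 and 227 CPM in stationary ones. A1 had 341, 347 and 355 CPM against 255, 275 and 276 CPM, and CHO-S had 354, 359 and 351 CPM against 100.1, 248 and 241 CPM. The stationary cultures lay below the exponential ones in each line. In the main fit the test passed only in CHO-S, at -0.80 on the log2 scale (SE 0.18, adjusted p = 0.0017 by edgeR). The CHO-S value shrank to -0.52 (SE 0.08, adjusted p = 2.0e-05) without culture 1 and missed the threshold with CHO-S fitted on its own (-0.83, adjusted p = 0.12). In A0 the value was -0.28 (SE 0.15, adjusted p = 0.16) and in A1 -0.37 (SE 0.17, adjusted p = 0.19). Both passed once CHO-S culture 1 was left out, at -0.26 (SE 0.06, adjusted p = 0.0012) and -0.36 (SE 0.07, adjusted p = 0.00063). The falls in A0 and A1 also passed with each line fitted on its own, so the Cdk4 fall was not particular to CHO-S.

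Cdk6 levels overlapped between the phases in A0, with 79.7, 91.8, 133 and 119.8 CPM in exponential and 92.8, 92.0, 96.8 and 104 CPM in stationary cultures. The exponential values split by library. The libraries marked RLT of cultures 1 and 2 had 56.8 and 72.6 CPM of the library's reads on genes, the first libraries of the same cultures 103 and 107, and both libraries of cultures 3 and 4 between 112 and 141. Cdk6 was not alone in this. In these RLT libraries Cdkn2c had 33.1 and 34.5 CPM against 43.8 and 45.4 in the first ones. Ccnd2 had 50.7 and 66.8 CPM against 68.0 and 76.3. With the first A0 libraries only, 47 of 48 values followed kept their call. The A0 change of Cdk6 was -0.14 (SE 0.13, adjusted p = 0.44 by edgeR) with the libraries summed and -0.34 (adjusted p = 0.017) with the first libraries only. It was 0.14 (adjusted p = 0.50) in cultures 1 and 2 alone and 0.016 (adjusted p = 0.95) without exponential culture 3. A1 had 105, 144 and 106 CPM against 87.2, 89.4 and 80.2 CPM, a log2 change of -0.47 (SE 0.15, adjusted p = 0.041), which missed the threshold without exponential culture 2 (-0.30, adjusted p = 0.30) or without any one stationary culture (adjusted p from 0.099 to 0.18), and under RLE (-0.43, adjusted p = 0.060) or upper quartile scaling (-0.41, adjusted p = 0.083). CHO-S had 118, 118 and 122 CPM against 104, 112 and 105 CPM, with a value of -0.15 (SE 0.15, adjusted p = 0.59) although the phases did not overlap.

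Of the inhibitors, Cdkn1b (p27) had 39.0, 34.8, 41.8 and 32.9 CPM in exponential A0 cultures and 22.2, 20.0013, 25.1 and 28.3 CPM in stationary ones, which were all lower. A1 had 31.7, 25.3 and 33.5 CPM against 28.4, 36.9 and 35.1 CPM, and CHO-S had 62.1, 68.3 and 64.8 CPM against 117, 61.9 and 58.5 CPM, so the phases overlapped in both. Cdkn1b fell in A0 by 0.63 on the log2 scale (SE 0.15, adjusted p = 0.0017 by edgeR). In A1 the value was 0.16 (SE 0.18, adjusted p = 0.64) with a 95% interval from -0.21 to 0.53. In CHO-S it was 0.15 (SE 0.18, adjusted p = 0.67) and turned to -0.094 (SE 0.13, adjusted p = 0.72) without culture 1.

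Cdkn2c (p18) moved in opposite directions in A0 and A1. A0 had 38.9, 40.8, 50.3 and 46.6 CPM in exponential and 19.5, 19.2, 35.0 and 31.8 CPM in stationary cultures. A1 had 63.9, 45.9 and 64.5 CPM against 90.6, 134 and 164 CPM, and CHO-S had 75.9, 92.7 and 77.8 CPM against 31.0, 42.1 and 46.1 CPM. The stationary cultures lay below the exponential ones in A0 and CHO-S and above them in A1, with no overlap. Cdkn2c fell by 0.74 on the log2 scale (SE 0.18, adjusted p = 0.0021 by edgeR) in A0 and by 0.98 (SE 0.22, adjusted p = 0.0021) in CHO-S, and rose by 1.16 (SE 0.21, adjusted p = 0.00042), or 2.24-fold, in A1. The CHO-S value was -0.89 (SE 0.21) without culture 1. Within A0, stationary cultures 1 and 2 had lower levels than cultures 3 and 4, and in cultures 3 and 4 alone neither the change of Cdkn2c (-0.54, adjusted p = 0.091) nor that of Cdkn1b (-0.49, adjusted p = 0.12) passed.

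Ratios of reads of 2 genes within a culture need no scaling between cultures. At exponential phase Ccnd2 reads per Ccnd1 read were 0.207 ± 0.031 (SD, n = 4) for A0, 0.308 ± 0.021 (SD, n = 3) for A1 and 0.337 ± 0.0053 (SD, n = 3) for CHO-S. At stationary phase A0 had a ratio of 0.744 ± 0.091 (SD, n = 4) and A1 one of 0.714 ± 0.049 (SD, n = 3), and in CHO-S it was 1.16 in culture 1 and 0.559 and 0.544 in cultures 2 and 3. Every stationary culture exceeded every exponential culture of all lines, so D cyclin reads moved toward Ccnd2 in each line even though Ccnd1 rose in CHO-S. Cdkn1b reads per Cdk2 read likewise went in A0 from 0.468 ± 0.034 (SD, n = 4) to 0.782 ± 0.061 (SD, n = 4). In A1 they went from 0.408 ± 0.056 (SD, n = 3) to 0.774 ± 0.077 (SD, n = 3). In CHO-S they went from 0.610 ± 0.050 (SD, n = 3) to 0.820 and 0.841 in cultures 2 and 3 and 2.35 in culture 1. Cdkn2c reads per Cdk4 read in A0 went from 0.16 ± 0.021 (SD, n = 4) to 0.116 ± 0.036 (SD, n = 4) with overlap, and in A1 from 0.167 ± 0.030 (SD, n = 3) to 0.479 ± 0.1196 (SD, n = 3) without overlap. In CHO-S this ratio was 0.214, 0.258 and 0.222 at exponential phase and 0.309, 0.1697 and 0.191 at stationary phase, so the phases overlapped.

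**Figure D3:**
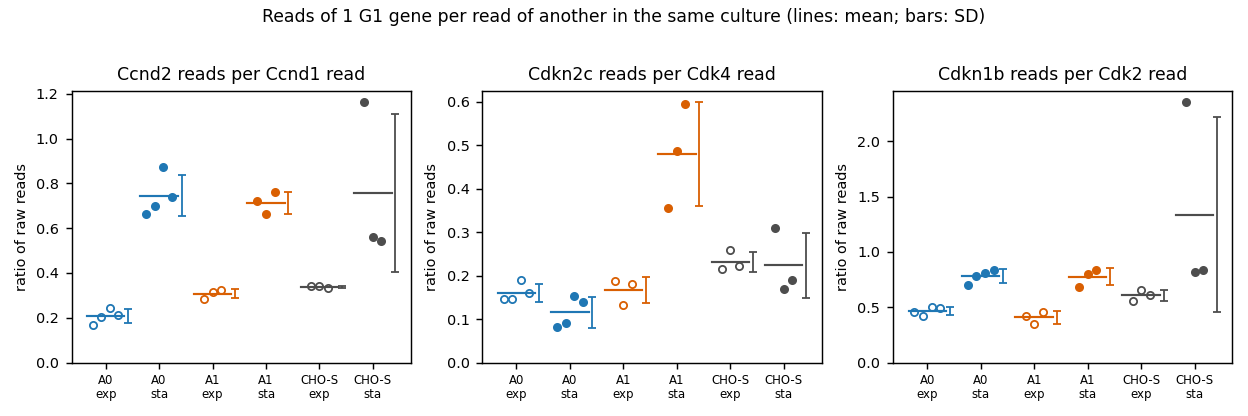
Raw reads of 1 gene per read of another in the same culture, for Ccnd2 per Ccnd1, Cdkn2c per Cdk4 and Cdkn1b per Cdk2, by line and phase (exp, open; sta, filled), with the mean as a line and the SD as a bar. Ccnd2 per Ccnd1 is higher in all stationary cultures than in all exponential ones, from 0.544 up against 0.341 at most, and Cdkn2c per Cdk4 reaches 0.356 to 0.595 only in stationary A1.

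Whether the phase change itself differed between lines was tested with an interaction term. Between A1 and A0, 3 of the 10 genes passed, against 4.56% of all genes tested (7.84% of those with at least 5 CPM, and 2.77% with the higher value in A1), and all 3 had the more positive change in A1. The difference in log2 change was 1.90 for Cdkn2c (SE 0.27, adjusted p = 0.00021 by edgeR), 1.17 for Ccne2 (SE 0.22, adjusted p = 0.0026) and 0.61 for Cdk2 (SE 0.17, adjusted p = 0.034). The value of Cdk2 missed the threshold with the culture number as a block (0.61, adjusted p = 0.054) and in 10 of the 14 fits that left out 1 A0 or A1 culture (adjusted p up to 0.12), and stood at 0.45 (adjusted p = 0.26) with A0 cultures 3 and 4 alone. Cdkn1b just missed it at 0.79 (SE 0.23, adjusted p = 0.051) and passed with the block (0.80, adjusted p = 0.027). Without CHO-S stationary culture 1, 5 genes passed (11.6% of all genes), with Ccnd1 at 0.44 (adjusted p = 0.0063) and Cdkn1b at 0.78 (adjusted p = 0.0018) added. The 95% interval of the difference was from -0.58 to 0.21 for Ccnd2, from -0.37 to 0.63 for Ccnd3 and from -0.57 to 0.38 for Cdk4.

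CHO-S and A0 differed in the phase change of 5 genes, where 14.7% of all genes passed, 8.25% with the higher value in CHO-S (25.5% of those with at least 5 CPM passed). The change in CHO-S was more positive by 1.76 for Ccnd1 (SE 0.16, adjusted p = 2.0e-08 by edgeR), by 1.25 for Ccne2 (SE 0.24), by 0.99 for Ccnd2 (SE 0.19), by 0.78 for Cdkn1b (SE 0.24, adjusted p = 0.025) and by 0.72 for Cdk2 (SE 0.17). Without CHO-S culture 1 the same 5 passed and Ccnd3 joined them at 0.60 (SE 0.11, adjusted p = 0.00016), with 19.4% of all genes called, while Ccnd2 stood at 0.74 and Cdkn1b at 0.52. In cultures 3 and 4 of A0 alone, Cdk2 (0.57, adjusted p = 0.054) and Cdkn1b (0.60, adjusted p = 0.21) missed the threshold. Cdkn1b also missed it without A0 exponential culture 3, without A0 stationary culture 2 and without CHO-S exponential culture 1 or 3 (adjusted p from 0.053 to 0.064). Between CHO-S and A1, 3 genes differed, against 5.49% of all genes, 3.01% higher and 2.48% lower in CHO-S (9.79% of those with at least 5 CPM): Ccnd1 by 1.31 (SE 0.17), Ccnd2 by 1.17 (SE 0.20) and Cdkn2c by -2.14 (SE 0.30), with adjusted p of at most 0.00086. Without CHO-S culture 1 these 3 passed and Ccnd3 joined them at 0.48 (adjusted p = 0.0071), where 10.8% of all genes passed. These comparisons share their cultures in pairs and are not independent of each other. For Ccne1 the interval of the difference from A0 was from -0.53 to 0.63 in CHO-S and from 0.05 to 1.08 in A1 (adjusted p = 0.23).

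**Figure D4:**
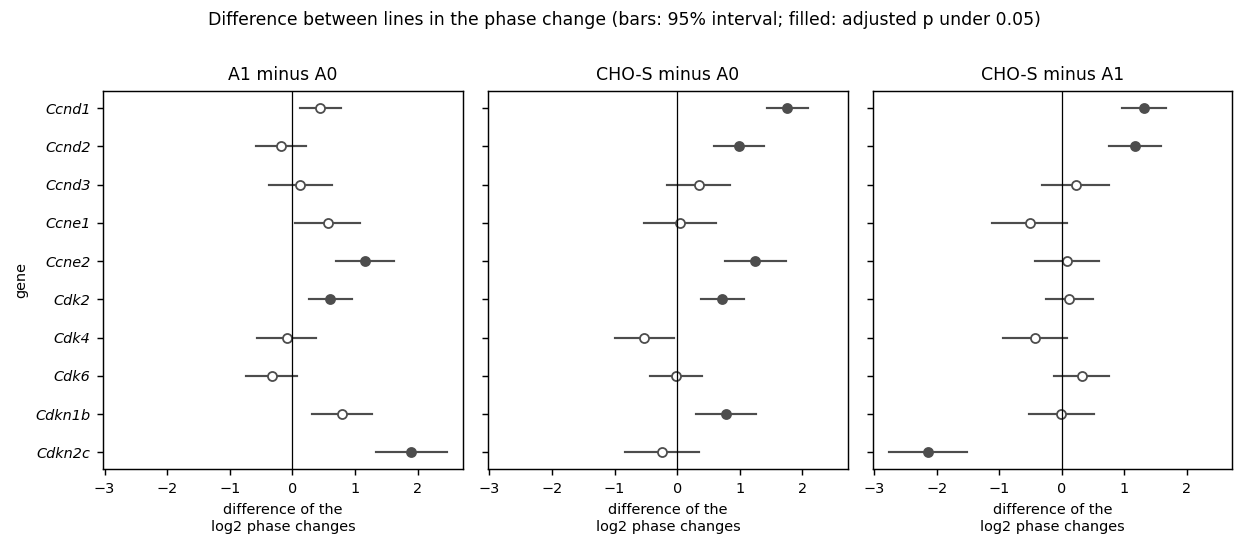
Difference between lines in the log2 change from exponential to stationary phase for each G1 gene, with its 95% interval; filled points have an adjusted p under 0.05. Cdkn2c stands at 1.90 for A1 minus A0 and at -2.14 for CHO-S minus A1, and Ccnd1 at 1.76 and 1.31 where CHO-S is compared with A0 and A1.

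At a given phase the lines differed in level too. At exponential phase A1 exceeded A0 in Ccnd2 alone among the 10 genes, by 0.87 on the log2 scale (SE 0.13, adjusted p = 3.5e-05 by edgeR), where 20.2% of all genes tested passed (9.45% with A1 higher). Without CHO-S stationary culture 1, which has no part in this comparison but in the shared spread, 5 passed (28.8% of all genes): Ccnd1 (0.30), Ccnd2 (0.87) and Cdk4 (0.33) higher and Ccnd3 (-0.22) and Cdkn1b (-0.30) lower in A1. At stationary phase A1 exceeded A0 in 7 genes (24.1% of all genes passed, 11.9% with A1 higher), and none was lower. The largest value was 2.30 for Cdkn2c (SE 0.20, adjusted p = 2.2e-09), or 4.91-fold, followed by Ccne2 (0.93), Ccne1 (0.81), Ccnd1 (0.75), Ccnd2 (0.69), Cdk2 (0.50) and Cdkn1b (0.49). Cdkn1b missed the threshold without A0 stationary culture 1 or 2 or without A1 stationary culture 2 or 3 (adjusted p from 0.078 to 0.19) and under upper quartile scaling (0.48, adjusted p = 0.060), and with A0 cultures 3 and 4 alone so did Cdkn1b (0.34, adjusted p = 0.30) and Ccne1 (0.49, adjusted p = 0.067). Without CHO-S stationary culture 1 Cdk4 passed as well (0.23, adjusted p = 0.0096), where 31.3% of all genes did. With filterByExpr, which drops weakly expressed genes, 4531 of 14186 genes passed for A1 against A0 at exponential phase and 5197 at stationary phase.

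CHO-S lay above A0 in 5 genes at exponential phase (42.9% of all genes passed, 19.2% with CHO-S higher) and in 6 at stationary phase (44.6% and 21.2%). At exponential phase these were Ccnd2 (1.58, SE 0.13), Cdkn2c (0.90, SE 0.19), Ccnd1 (0.87, SE 0.11), Cdkn1b (0.81, SE 0.16) and Cdk2 (0.43, SE 0.11). Without CHO-S stationary culture 1, Cdk4 (0.36) passed with CHO-S higher and Ccne2 (-0.31) with CHO-S lower, where 48.4% of all genes passed. At stationary phase Ccnd1 and Ccnd2 were 6.18-fold and 5.91-fold higher, at 2.63 (SE 0.11) and 2.56 (SE 0.14) on the log2 scale, and Cdkn1b stood at 1.59 (SE 0.17), Cdk2 at 1.15 (SE 0.12), Ccne2 at 0.93 (SE 0.19) and Cdkn2c at 0.66 (SE 0.21). Stationary CHO-S and A0 cultures overlapped for Cdkn2c, and the call was lost without CHO-S culture 3 (0.56, adjusted p = 0.079 by edgeR), with only the compared groups fitted (0.65, adjusted p = 0.050) and in A0 cultures 3 and 4 alone (0.33, adjusted p = 0.26). Without CHO-S culture 1, Ccnd3 passed as well (0.62, adjusted p = 2.4e-07), with 47.6% of all genes called. With filterByExpr 8665 of 14186 genes passed for CHO-S against A0 at exponential phase and 9071 at stationary phase. The counts of 5 and 6 thus do not set the 10 genes apart from other expressed genes.

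Ordered by mean, Ccnd1 went from stationary A0 (142 ± 12.1 CPM, SD) through stationary A1 (239 ± 12.3) and exponential A0 (343 ± 16.01) and A1 (422 ± 26.3) to exponential CHO-S (625 ± 10.5) and stationary CHO-S (875 ± 140.5). No neighbours in this order shared values, although exponential A1 was not called above exponential A0 (0.30 on the log2 scale, adjusted p = 0.055 by edgeR). Ccnd2 kept the order A0, A1, CHO-S, with stationary above exponential within each. At exponential phase the Ccne1 levels of A0 (17.2 ± 1.76 CPM, SD) and CHO-S (17.4 ± 1.31 CPM, SD) overlapped, and all A1 cultures lay above both, although A1 was not called above A0 (0.25 on the log2 scale, adjusted p = 0.29 by edgeR).

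The genes that surround these 10 in the pathway were taken from lists of known genes, and their counts stand against 52.4%, 19% and 32.3% of genes with at least 5 CPM called in A0, A1 and CHO-S (35.2%, 11.6% and 19.2% of all genes tested). Of 14 S phase genes driven by E2F, 14 fell in A0, 13 in A1 and 12 in CHO-S, and none rose. Their median log2 change was -1.59, -0.79 and -1.10. The largest fall was that of Rrm2, a subunit of ribonucleotide reductase, in A0 (-2.14, SE 0.15), of Ung, which removes uracil from DNA, in A1 (-1.40, SE 0.18), and of Mcm5, of the replicative helicase, in CHO-S (-1.63, SE 0.17). Without CHO-S stationary culture 1 all 14 fell in each line.

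Of 12 measured pocket proteins and E2F factors (E2f5 was not analysed here), 9 fell in A0, 6 fell and 1 rose in A1, and 7 fell and 1 rose in CHO-S. E2f8, a repressing E2F, fell most in A0 (-2.41, SE 0.17) and A1 (-1.14, SE 0.19), and Tfdp1, the usual partner of E2F, fell most in CHO-S (-1.40, SE 0.13). The risers were Rbl2 (p130) in A1 (0.64, SE 0.15) and Rb1 in CHO-S (0.65, SE 0.14), by edgeR with adjusted p of 0.0067 and 0.0018. Rbl1 (p107), the other gene of the retinoblastoma family, fell in A0 (-1.08, SE 0.11), A1 (-0.43, SE 0.12) and CHO-S (-0.56, SE 0.13). With that CHO-S culture left out, Rbl2 passed in A0 too and Rb1 in A1, and the falls numbered 9, 7 and 8 in A0, A1 and CHO-S.

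Among 14 activators of G1 kinases and proteins of cyclin turnover, 2 rose and 7 fell in A0, 1 rose and 7 fell in A1, and 5 fell in CHO-S, which is 64.3%, 57.1% and 35.7% of the list. Without CHO-S culture 1 these counts were 3 and 9, 2 and 9, and 1 and 6. Fbxo31 rose in A0 (0.62, SE 0.12) and A1 (0.51, SE 0.14), and Fbxo4 fell in A0 (-1.54, SE 0.10), A1 (-0.97, SE 0.11) and CHO-S (-1.09, SE 0.14). Both encode F-box proteins that have been tied to cyclin D1 breakdown. The largest fall in CHO-S was that of Cdc25a (-1.10, SE 0.13), a phosphatase that activates Cdk2.

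Of 8 mitotic cyclins and kinases, 7 fell in A0, 4 in A1 and 8 in CHO-S, led by Plk1 in A0 (-1.57, SE 0.14) and A1 (-0.80, SE 0.15) and by Ccnf in CHO-S (-1.17, SE 0.21). With CHO-S culture 1 left out the falls were 7, 6 and 8. The stationary CHO-S cultures had 24.8, 63.6 and 67.1 CPM of Ccnf, so its place rests much on the lowest of them. Of 5 other CDK inhibitors with a tested row, Cdkn3, a phosphatase that acts on kinases of the cycle, fell in A0 (-0.74, SE 0.10), A1 (-0.84, SE 0.12) and CHO-S (-0.34, SE 0.12, adjusted p = 0.048 by edgeR). Cdkn1a (p21) fell in A1 (-0.55, SE 0.17), and none of the list rose. Without CHO-S culture 1, 1 of them (Cdkn1a) rose in CHO-S. Cdkn1c of this list was almost without reads, with group means of at most 0.026 CPM, so it could hardly be called.

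The 7 measured growth arrest and stress genes had no common direction, with 3 rises and 1 fall in A0, 3 falls in A1 and 2 rises and 1 fall in CHO-S, which is 57.1%, 42.9% and 42.9% of the list. Leaving out CHO-S culture 1 gave these counts again. Sesn2, a stress-induced inhibitor of growth signalling, rose by 2.99 (SE 0.14) in A0, from 9.89 ± 1.17 to 78.7 ± 9.601 CPM (SD, n = 4), and Sesn1 was the gene that fell there (-0.52, SE 0.12). Btg2, an antiproliferative gene, fell most in A1 (-1.34, SE 0.19) and rose most in CHO-S (1.49, SE 0.18), where Sesn1 fell (-0.45, SE 0.15).

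**Figure D5:**
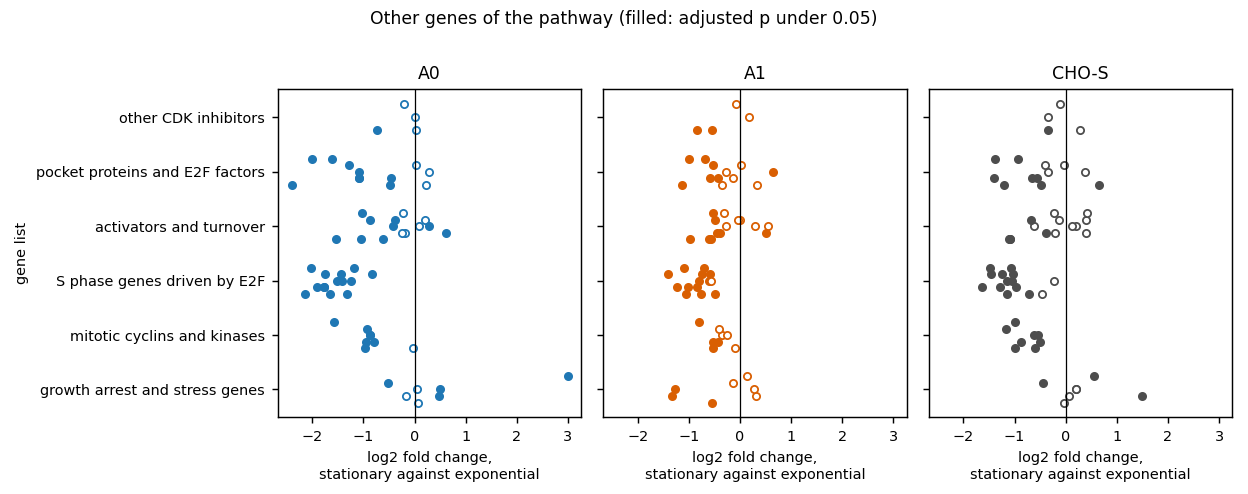
Log2 fold change at stationary against exponential phase of the listed pathway genes in A0, A1 and CHO-S, 1 point per gene with a group mean of at least 1 CPM in some group; filled points have an adjusted p under 0.05, and the height within a row has no meaning. Filled S phase and mitotic genes all lie left of 0, and Sesn2 lies at 2.99 in A0.

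For each of the 10 genes, the gene most like it was sought among the 10587 others with a mean of at least 5 CPM, by Pearson correlation of log2 CPM over the 20 samples, which share lines, phases and scaling. The closest were Capn5 for Ccnd1 (r = 0.983), LOC100752268 for Ccnd2 (0.972), Rps6ka4 for Ccnd3 (0.950), Ccnb1 for Ccne1 (0.984), Dut for Ccne2 (0.981) and Evc2 for Cdk2 (0.976). They were Kifc1 for Cdk4 (0.966), Uhrf1bp1l for Cdk6 (0.849), Gpsm2 for Cdkn1b (0.962) and Hp1bp3 for Cdkn2c (0.884). Cdk6 and Cdkn2c thus had the loosest closest match. The samples include CHO-S stationary culture 1, and no correlations without it are given here. In stationary CHO-S cultures Rps6ka4 had 14.4, 61.4 and 62.3 CPM, Kifc1 8.26, 51.8 and 53.8 CPM, and Gpsm2 289, 303 and 517 CPM. Each thus had a culture far from the rest, as Ccnd3, Cdk4 and Cdkn1b had. How much of these matches rests on that culture was not tested.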

How the data were processed

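Per the labels, mRNA was made into stranded libraries. The authors aligned reads with STAR (2.5.4b, per the submitters' processing notes), counted them per gene with HTSeq (0.7.2) and deposited raw counts without normalization. The strand setting is not given in the sources used here, so reads of a gene and of an antisense partner may not be separated. Reads that align to more than 1 place are left out by this counter, which lowers genes with near-identical copies. The 5 summary lines (reads on no gene, ambiguous, not aligned and the like) stayed out of library sizes and tests, and 11.9% to 32.8% of a library's reads fell on no gene.

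A0 exponential libraries of the same culture number were summed. Counts were fitted in edgeR 4.0.16 (R 4.3.3) with TMM normalization, 1 mean for each of 6 groups (14 residual degrees of freedom) and a two-sided quasi-likelihood test. The p-values were adjusted by Benjamini-Hochberg over 21358 genes (1 count or more in 2 samples or more), and 0.05 was the threshold. CPM are TMM-normalized unless given as CPM of the reads on genes. They are not per transcript length and were not compared between genes. log2 CPM used a prior count of 2. The procedure was also run on simulated data, whose outcome is not given here and is not used to back the calls. Alternatives covered DESeq2 1.42.0, other scaling and filters, the groups in a fit, A0 libraries and cultures, a replicate block and leaving out each culture. Leaving out CHO-S stationary culture 1 where it is not compared, that omission together with the block, and read ratios were chosen after the values were seen.

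Same-numbered A0 cultures deviated together between the phases (r from 0.19 to 0.424, all over 0.1), although cultures 3 and 4 each correlated best with the other's number. In A1 (-0.125 to 0.154) and CHO-S (-0.0049 to 0.0966) they did not. Differences between 2 libraries were also set against read sampling noise (chi-square per degree of freedom). Duplicate and first libraries of A0 cultures 3 and 4 gave 3.12 and 2.74. RLT and first libraries of cultures 1 and 2 gave 26.8 and 5.98. The first libraries of exponential A0 cultures 1 and 2 gave 2.43 with each other, less than those repeats. First libraries of cultures 3 and 4 gave 11.7 with each other, and first libraries across these pairs of cultures 10.5 to 18.8. CHO-S exponential samples gave 1.68 to 2.29, and A1 stationary ones 2.915 to 3.76. Stationary A0 cultures 1 and 2 gave 3.74, 3 and 4 gave 2.77, and pairs across these 15.7 to 19.2. The main fit had no term for that split.

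The genes and lists were chosen with earlier results of these data known. The text names all 10 genes, the largest rise and fall of each list past the threshold in each line, and the closest gene to each of the 10; Cdkn1a, Rbl1 and the mention of Rbl2 and Rb1 without CHO-S culture 1, were chosen after their values were seen. Of the lists' genes, Cdkn2b, E2f5 and Gadd45a were not analysed here, and 1 more is not reported here. The gene table at hand is of another assembly than the counts, so no coordinates or sequences are given.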

Additional observations from a re-analysis of the deposited data

Results flagged for a closer look

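In 2 of the 20 groups of 4 A0 cultures tested, 1 culture lay far from the rest, where chance gives about 1 in 20. For Ccnd3 in stationary A0, culture 3 (87.2 CPM) was the high one, with a gap of 0.964 of the whole range, and for Cdk2 in exponential A0, culture 4 (67.3 CPM) was the low one, with a gap of 0.832.

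The change from exponential to stationary phase differed between lines by the interaction test of edgeR's quasi-likelihood fit for the following genes. Between A1 and A0 the difference in log2 change was 1.17 for Ccne2, 0.61 for Cdk2 and 1.90 for Cdkn2c. Between CHO-S and A0 it was 1.76 for Ccnd1, 0.99 for Ccnd2, 1.25 for Ccne2, 0.72 for Cdk2 and 0.78 for Cdkn1b. Between CHO-S and A1 it was 1.31 for Ccnd1, 1.17 for Ccnd2 and -2.14 for Cdkn2c.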

How the results depend on the processing

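Of 72 values of single genes that were followed, 41 kept their direction and their side of the threshold under every alternative run. Of 1329 recomputed values, 1219 did. The 72 do not hold every gene in every comparison. Some of the calls gained for A1 against A0 in the counts below belong to genes outside them, so these shares do not cover all changes. The number of the 10 genes called moved by more than 1.5 times in these cases. In A0 between phases, 8 became 5 with cultures 3 and 4 alone, while the genes called among all tested went from 7516 to 4992. For the A1 against A0 difference in phase change, 3 became 5 with DESeq2 and with only the groups compared, 6 with A0 cultures 1 and 2 alone, and 7 with the replicate block without CHO-S stationary culture 1, while the genes called among all went from 973 to 1603, 1873, 2060 and 3724. For CHO-S against A0, 5 became 3 with A0 cultures 3 and 4 alone (3139 and 2272 among all genes). For A1 against A0 at exponential phase, 1 became 2 with DESeq2, upper quartile scaling, filterByExpr, the replicate block or A0 cultures 1 and 2 alone, and 4 with only the groups compared (4324 among all genes at first, 4281 to 4899 with 2 and 5163 with 4). The cause of these was not tested.

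Leaving out 1 culture at a time gave 7 to 9 calls in A0, 5 to 9 in A1 and 7 in CHO-S between phases, 2 to 5 for the difference A1 against A0 (5 without A0 stationary culture 4 or CHO-S stationary culture 1), 4 to 6 for CHO-S against A0 and 3 to 4 for CHO-S against A1. Between lines it gave 1 to 5 and 6 to 8 for A1 against A0 at exponential and stationary phase, and 5 to 7 for CHO-S against A0 at each phase.

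Signs turned for Cdk6 in A0 (0.14 in cultures 1 and 2 alone, and -0.25 to 0.016 leaving out 1 culture, positive without exponential culture 3). In CHO-S they turned without stationary culture 1 for Ccnd3 (-0.25 to 0.18 leaving out 1 culture, 0.23 with the replicate block too) and Cdkn1b (-0.094 to 0.32, and -0.13 with the block). The replicate block on all samples changed no call other than those of Cdk2 and Cdkn1b in the A1 against A0 difference and the count named above.

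Over all genes, the higher and lower calls in CHO-S went from 2026 and 2081 to 2460 and 1664 with RLE scaling, and in A1 from 1245 and 1225 to 1489 and 900 with upper quartile scaling. No scaling moved the median log2 change of genes with at least 5 CPM by over 0.1. Depth limits CHO-S culture 1 most, where Ccne1 rests on 2 reads.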

Other observations

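Other ratios of reads within a culture were computed as values only. Ccne1 reads per Ccnd1 read went from 0.0502 ± 0.0065 (SD, n = 4) to 0.0325 ± 0.0100 (SD, n = 4) in A0 and from 0.0485 ± 0.0041 (SD, n = 3) to 0.0341 ± 0.0020 (SD, n = 3) in A1, and in CHO-S from 0.0278 ± 0.0016 (SD, n = 3) to 0.00289, 0.00483 and 0.00613 in the 3 stationary cultures. Cdkn2c reads per Cdk6 read went from 0.425 ± 0.051 (SD, n = 4) to 0.272 ± 0.075 (SD, n = 4) in A0, from 0.512 ± 0.168 (SD, n = 3) to 1.53 ± 0.506 (SD, n = 3) in A1 and from 0.688 ± 0.083 (SD, n = 3) to 0.371 ± 0.071 (SD, n = 3) in CHO-S. Cdk6 reads per Cdk4 read were 0.384 ± 0.090 (SD, n = 4) and 0.424 ± 0.030 (SD, n = 4) in A0 and 0.341 ± 0.066 (SD, n = 3) and 0.319 ± 0.027 (SD, n = 3) in A1 at exponential and stationary phase. In CHO-S they were 0.334, 0.3296 and 0.348 at exponential and 1.04, 0.4499 and 0.436 at stationary phase, without overlap.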
